A study of Mus musculus with 4 samples.

Results

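The genes described here are 7 serpins, Serpinf1, Serpine2, Serpinh1, Serpini1, Serpinb6a, Serpinb9 and Serping1, and the plasminogen activator genes Plat and Plau, together 9 of the 35857 genes listed per library. They were selected by symbol on earlier results of the comparison of Qk_KO with control, so their differences between those groups are given as a description, without p-values. The cells were glial progenitors (C57BL/6 mice) grown from neural stem cells of embryonic cerebral cortex and collected 24 hr after glial differentiation was induced. The control group (wild type) and the Qk_KO group (genotype Qk-/-) had 2 libraries each of poly(A)-selected RNA. Qk encodes Quaking, an RNA-binding protein that controls splicing, stability and translation of messenger RNA in glia. How Qk was inactivated, and whether the 2 libraries of each group were made from different cultures, is not given in the sources used here, so the spread between libraries may be technical.

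Serpins are a superfamily of proteins that mostly inhibit serine proteases: the protease cuts an exposed loop of the serpin, which then changes shape and traps the enzyme. Plat (tissue plasminogen activator, tPA) and Plau (urokinase, uPA) cut plasminogen into plasmin, a protease of fibrin and extracellular matrix, and in brain tPA is also known for roles in synaptic plasticity and neuronal migration. Protease nexin-1 (Serpine2) and neuroserpin (Serpini1) are the inhibitors of these activators best known from neural tissue. A few family members inhibit no protease: pigment epithelium-derived factor (PEDF, from Serpinf1) is a secreted neurotrophic and antiangiogenic factor, and HSP47 (Serpinh1) is a collagen chaperone of the endoplasmic reticulum.

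Quaking binds RNA at a short core motif, and the letters ACTAAC or ACTAAT (transcript strand only) were searched in the annotated 3′ untranslated region of each member, since Quaking is the protein whose gene was knocked out. The search found 1 match in Serpinf1, 1 in Serpine2 and 2 in Plau, and 0 in the other 6 members. The windows of 30 bases around the matches lie at chr11:75409804-75409833 (minus strand) in Serpinf1 and at chr1:79794308-79794337 (minus strand) in Serpine2. Those in Plau lie at chr14:20842892-20842921 and chr14:20843226-20843255 (plus strand). Positions are those of GRCm38, GENCODE M21. The 30 bases around each match are shown 5′ to 3′, with the 6 letters searched in capitals.
Serpinf1: ccacacacaattACTAACacttgctgtggg
Serpine2: taaagttggaaaACTAACgtctcgctggac
Plau, first match: aggagtagagacACTAACggcttgagggaa
Plau, second match: ttttttttttttACTAATtagcctagttca

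The 3′ untranslated region of Serpinf1 has 365 bases, and its match starts at base 313. Of the 957 genes tested whose region was within 20% of that length, 12.2% held a match, so the letters are uncommon in a region this short. For Serpine2 (808 bases) the share among genes of like length was 22.1%, and for Plau (935 bases) it was 25.4%. Among all 12264 genes tested with an annotated region, 32.3% held at least 1 match. These matches are a description of the sequence, and binding was not measured.

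Each library gives abundance as TPM (a share of all transcripts, corrected for transcript length), so levels can be compared between genes, but the read depth is unknown. Between 18846 and 19387 genes were above 0 per library. Qk stood at 208 and 215 TPM in control and at 36.1 and 43.7 TPM in Qk_KO, 18.9% of control, on the side its labels give in all 4 libraries. The 10 neural stem cell markers examined were all present. No gene of the neuron and astrocyte marker lists was at 0 in every library, and of the oligodendrocyte lineage list only Mog, a gene of mature myelin, was at 0 in every library.

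The members together made up between 1371 and 1573 TPM in control and between 1704 and 1807 TPM in Qk_KO. Serpine2 and Serpinh1 carried most of this, 84.1% ± 0.373 in control and 77.2% ± 3.19 in Qk_KO (SD, n = 2). In control the order of levels was Serpine2, Serpinh1, Plat, Serpinf1 and Serpinb6a, each with both libraries above the next gene's. Serpini1 and Plau followed and overlapped each other, and then Serping1 and Serpinb9, which overlapped too. In Qk_KO the order differed in that Serpinf1 stood above Plat in both libraries, and the values of Serpine2 spanned those of Serpinh1. The 2 low pairs came apart there, with Serpini1 above Plau and Serping1 above Serpinb9.

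**Figure D1:**
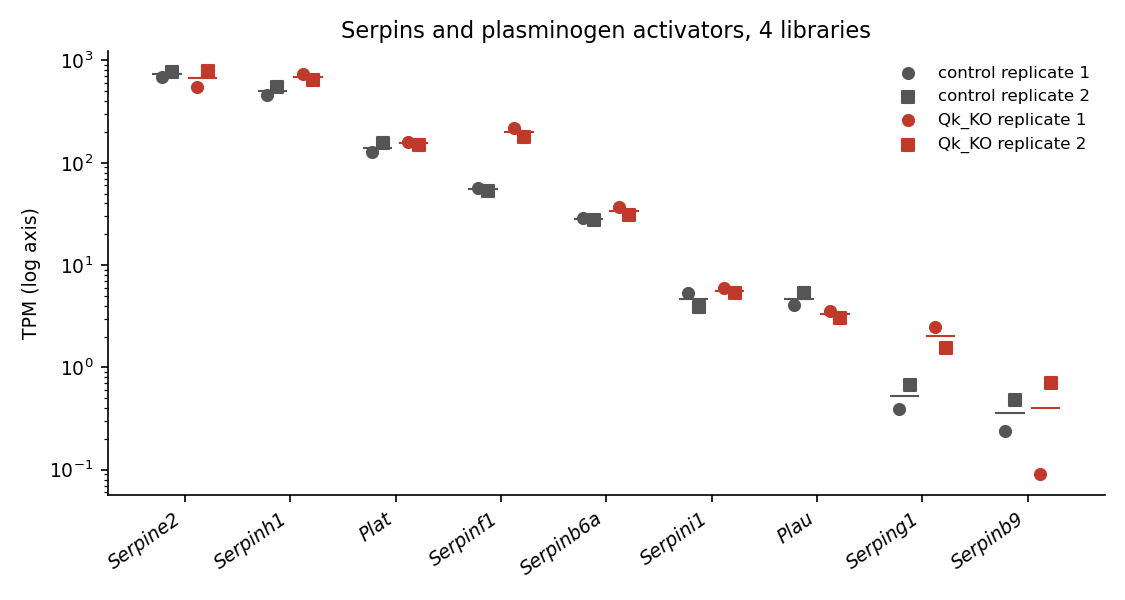
TPM (log axis) of the 9 genes in each of the 4 libraries, ordered by mean level. Grey points are control and red points Qk_KO, circles replicate 1 and squares replicate 2, and short lines are group means. Serpinf1 lies at 53.2 to 56.8 TPM in control and 180 to 218 TPM in Qk_KO, while the levels of Plat and Serpine2 overlap between the groups.

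Serpinf1 (Entrez 20317; GRCm38 chromosome 11, 75409769 to 75422701, minus strand) had the largest log2 difference among the members tested. Its level was 56.8 and 53.2 TPM in control, against 218 and 180 TPM in Qk_KO. Both Qk_KO libraries were thus far above both control libraries, and the replicates of each group lay close together beside that gap. The group means were 55.0 ± 2.49 and 199 ± 26.9 TPM (SD, n = 2), a 3.62-fold higher level in Qk_KO. On the log2(TPM + 1) scale, which understates changes of low genes, the difference was 1.83 (SE 0.12), and 53 of the 13260 genes tested (those averaging 1 TPM or more) had a larger positive one. Serpinf1 made up 3.76% ± 0.534 of the members' summed TPM in control and 11.4% ± 2.01 in Qk_KO.

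Serpinf1 was the single member that passed an adjusted p of 0.05 in limma (Benjamini-Hochberg adjustment over all 13260 genes), 1 of 8 tested, where 3.24% of all genes passed. Nothing is read from that count or from the call on Serpinf1 itself, since the members were chosen on this contrast. The call was lost with no filter on low values and without control replicate 1, control replicate 2 or Qk_KO replicate 1, with log2 differences between 1.69 and 1.97 over the alternatives.

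Bulk RNA cannot tell more RNA per cell from more cells of a kind, and PEDF is also made by fibroblasts and meningeal cells. The fibroblast, pericyte and meninges list (14 genes, 0 of them at 0 in every library) summed to 1736 and 1596 TPM in control and to 4072 and 1871 TPM in Qk_KO. Nearly all of this sum was Acta2 and Tagln, genes of contractile cells. Of the 14 genes, 2 lay higher in both Qk_KO libraries (Acta2 and the matrix gene Ogn), 3 lay lower and 9 overlapped. Ogn was at 2.06 and 2.69 TPM in control and 9.54 and 3 TPM in Qk_KO, and the collagen gene Col1a1 at 26.6 and 20.4 TPM in control and 16.1 and 15.9 TPM in Qk_KO. Dcn and Lum were between 0.10 and 0.75 TPM in every library. The summed neuron list (14 genes) was at 588 and 380 TPM in control and 826 and 752 TPM in Qk_KO. Tubb3 carried that gap: without it the sums were 314 and 254 TPM in control and 313 and 369 TPM in Qk_KO. Of the 14 genes 10 overlapped and 4 lay higher. Snap25 was the only 1 of them called, higher, at 18.2 and 12.8 TPM in control and 31.6 and 37.5 TPM in Qk_KO. In the oligodendrocyte lineage list 7 of 12 genes lay lower in both Qk_KO libraries and 0 higher, with Pdgfra and Lhfpl3 called lower. Over all genes tested, 27.5% lay lower in both Qk_KO libraries and 33.6% higher. Pdgfra, the receptor that marks oligodendrocyte precursors, was at 53.1 and 35.8 TPM in control and 5.37 and 12.1 TPM in Qk_KO. The part of these cell types in the Serpinf1 difference was not tested.

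Receptors proposed for PEDF did not pass the test in either direction. The list held 5 genes, of which 4 had a mean of at least 1 TPM. In limma 0 were called, where 3.24% of all genes tested were, and 0 were at an unadjusted p under 0.05. With so few genes nothing is read from the lack of calls. In both Qk_KO libraries 2 of the 4 lay lower and 2 overlapped, where 27.5% of all genes tested lay lower. Pnpla2, a triglyceride lipase that also binds PEDF, was at 47.5 and 42.8 TPM in control and 50.7 and 44.9 TPM in Qk_KO, so its groups overlapped. Rpsa, the laminin receptor and ribosomal protein, was at 2165 and 2271 TPM in control and 1645 and 2010 TPM in Qk_KO, lower in both Qk_KO libraries but not called.

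Serpinf2, the gene of the plasmin inhibitor alpha2-antiplasmin, is the next protein-coding gene to Serpinf1 on chromosome 11 and is on the same strand. It was at 0.76 and 0.92 TPM in control and at 0.40 and 0.75 TPM in Qk_KO, too low to be tested. Smyd4, on the other side of Serpinf1, was at 6.08 and 8.03 TPM in control and 7.29 and 6.72 TPM in Qk_KO, with a log2 difference of 0.00. Among the 5 protein-coding genes on each side, a set looked at after the members' values were seen, 1 of 9 tested was called. Over all genes tested 3.24% were called, and 0 were with no filter on low values, so the neighbour's call was lost there. Nothing is read from that count. The neighbour called was Rtn4rl1, a Nogo receptor homolog 3 genes away, at 6.38 and 5.46 TPM in control and 13.03 and 12.4 TPM in Qk_KO (log2 fold change 0.99, SE 0.15, limma adjusted p = 0.0426). Rpa1 and Smyd4 on that side of Serpinf1, and Wdr81, Tlcd2 and Prpf8 on the other, had log2 differences between -0.15 and 0.23. Rilp, the outermost gene on the side of Serpinf2, was lower in both Qk_KO libraries without a call, at 14.4 and 17.8 TPM in control and 7.72 and 9.95 TPM in Qk_KO (-0.80, SE 0.18, limma adjusted p = 0.0687). Ovca2 and Dph1, the outermost on the side of Smyd4, had log2 differences of -0.34 and -0.24 and were not called.

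**Figure D2:**
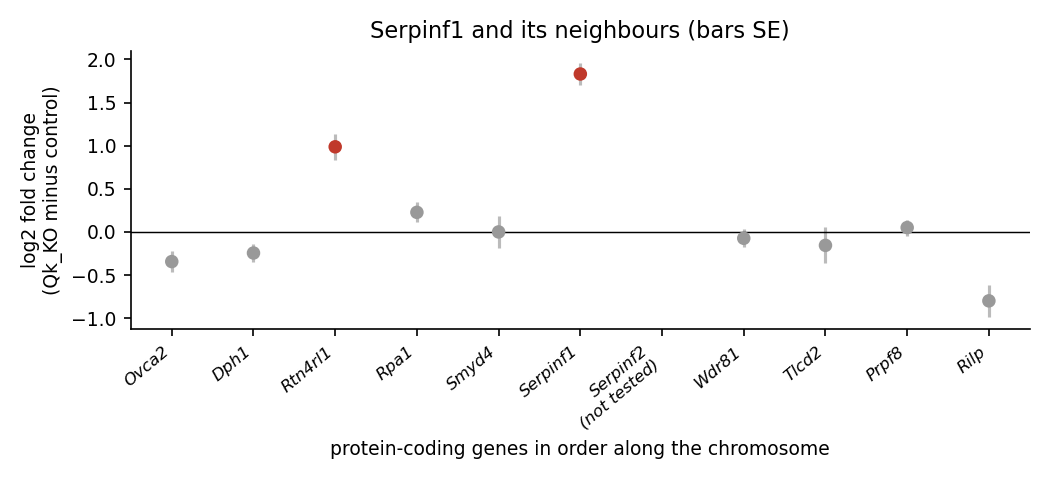
Log2 fold change of TPM + 1 (Qk_KO minus control, y axis, bars SE) for Serpinf1 and the 5 protein-coding genes on each side in chromosomal order (x axis). Red points passed the test. Serpinf1 stands at 1.83 and Rtn4rl1 at 0.99, and Serpinf2 was too low to be tested.

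Serpinh1 (chromosome 7, 99345376 to 99353239, minus strand) encodes HSP47, which binds procollagen in the endoplasmic reticulum and is carried back from the Golgi by KDEL receptors. Its level was 460 and 548 TPM in control and 732 and 646 TPM in Qk_KO. Both Qk_KO values were above both control values, with means of 504 ± 61.7 and 689 ± 60.9 TPM (SD, n = 2), a ratio of 1.37 and a log2 difference of 0.45 (SE 0.12). It was not called under any setting tried. The ratio of Serpinh1 to P4hb, the abundant disulfide isomerase subunit of collagen prolyl hydroxylase, was 0.963 and 1.04 in control and 1.41 and 1.25 in Qk_KO. That ratio does not depend on how a library is scaled. P4hb itself was at 478 and 526 TPM in control and 520 and 519 TPM in Qk_KO.

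Of the list of collagen folding and retrieval genes that work beside HSP47, all 24 were tested, 1 was called higher, 0 lower and 23 were not called. Over all genes 1.83% were called higher and 1.42% lower. The list's median log2 difference was 0.04, equal to the 0.04 of all genes tested. The gene called was Fkbp10, the prolyl isomerase FKBP65 that partners HSP47 in collagen folding. The list was chosen with earlier results of these data known, so its call and adjusted p-value are not independent evidence. Fkbp10 rose from 25.2 and 28.5 TPM to 55.0 and 51.1 TPM (log2 fold change 0.96, SE 0.12, limma adjusted p = 0.0336), and Qk_KO was higher in 2 of 2 libraries. Over the alternatives its adjusted p ran from 0.0244 to 0.262, and the call was lost without each of the 4 libraries in turn.

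The KDEL receptor genes differed among themselves. Kdelr1 was at 131 and 126 TPM in control and 139 and 155 TPM in Qk_KO, and Kdelr2 at 80.3 and 86.3 TPM in control and 69.2 and 69.4 TPM in Qk_KO. Kdelr3 was at 7.75 and 10.1 TPM in control and at 30.02 (replicate 1) and 13.2 TPM (replicate 2) in Qk_KO, so most of its difference sat in replicate 1. None of the 3 was called. P4ha1, a catalytic subunit of the prolyl hydroxylase, had the lowest log2 difference of the list, with 94.2 and 136 TPM in control and 73.4 and 65.1 TPM in Qk_KO (-0.70, SE 0.19), and was not called either. Kdelr1, Kdelr3 and P4ha1 were chosen after their values were seen.

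**Figure D3:**
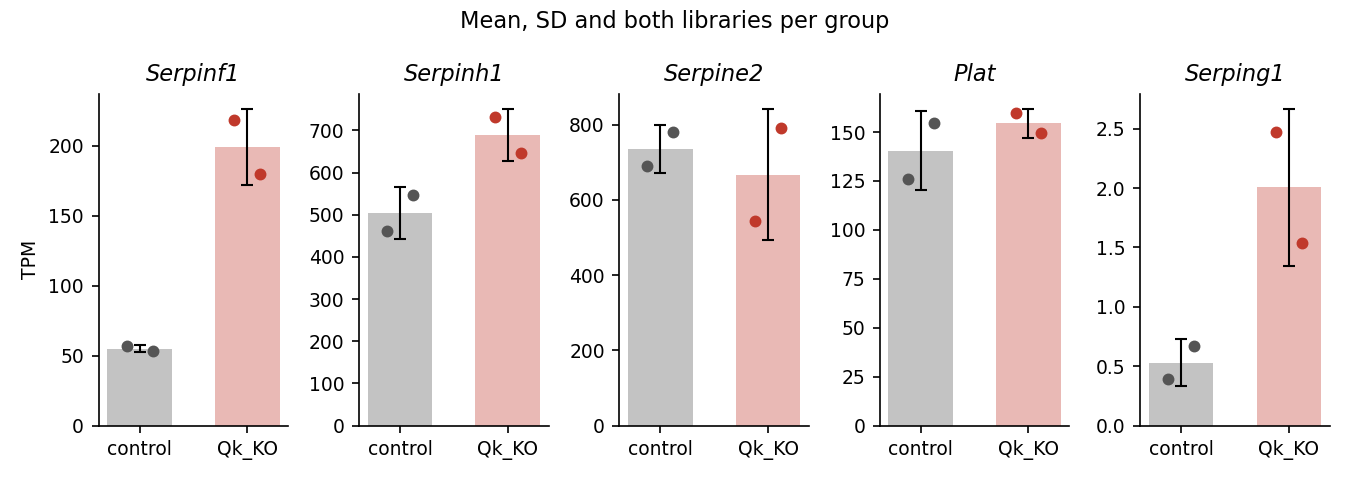
TPM of Serpinf1, Serpinh1, Serpine2, Plat and Serping1 (bars from 0 are group means, error bars SD over 2 libraries, points the libraries; each panel has its own scale). Both Qk_KO points lie above both control points for Serpinf1, Serpinh1 and Serping1, and the groups overlap for Serpine2 and Plat.

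Serpine2 (chromosome 1, 79794197 to 79861180, minus strand) was the most abundant member in control. Protease nexin-1, its product, inhibits thrombin, uPA, tPA and plasmin at the cell surface. It was at 689 and 780 TPM in control and at 545 (replicate 1) and 790 TPM (replicate 2) in Qk_KO. The Qk_KO libraries thus spanned both controls, with means of 734 ± 63.9 and 668 ± 173 TPM (SD, n = 2) and a log2 difference of -0.16 (SE 0.19). The sign changed without Qk_KO replicate 1 (0.11), so no direction can be given.

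Serpini1 (chromosome 3, 75557547 to 75643495, plus strand), the gene of the tPA inhibitor neuroserpin, was low in comparison, at 5.36 and 3.91 TPM in control and 5.96 and 5.28 TPM in Qk_KO. These groups overlapped, and the log2 difference of 0.24 (SE 0.20) was near its error. Neuroserpin is mainly a product of neurons. Of the 14 neuron markers 4 lay higher in both Qk_KO libraries and 10 overlapped, where 33.6% of all genes tested lay higher. The part of neurons in the Serpini1 values was not tested.

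Plat (chromosome 8, 22757727 to 22782844, plus strand) stood at 126 and 155 TPM in control and at 159 and 149 TPM in Qk_KO. The groups overlapped, with means of 140 ± 20.1 and 154 ± 7.23 TPM (SD, n = 2) and a log2 difference of 0.14 (SE 0.13). Without control replicate 1 the difference was -0.0030. Plau (chromosome 14, 20836660 to 20843385, plus strand) was far lower, at 4.05 and 5.33 TPM in control and 3.55 and 3.06 TPM in Qk_KO. Both Qk_KO values were below both controls, by a log2 difference of -0.40 (SE 0.20), and the gap between the nearest libraries was small beside the spread of the controls. The level of Plat was 31.1 and 29.0 times that of Plau in control and 44.9 and 48.8 times in Qk_KO.

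The summed level of the inhibitors Serpine2 and Serpini1 over that of Plat was 5.51 and 5.07 in control and 3.46 and 5.33 in Qk_KO. The Qk_KO libraries straddled the controls, and the ratio of the group means (0.831) ran from 0.654 to 1.01 when a library was left out. With Plau added to the denominator the values were 5.34 and 4.90 in control and 3.38 and 5.22 in Qk_KO. At the RNA level the balance of these inhibitors and activators was thus not separated by genotype in these 4 libraries. RNA does not show how much active protease or inhibitor was secreted.

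Serpinb6a and Serpinb9 belong to the intracellular clade B serpins. Serpinb6a (chromosome 13, 33917918 to 34002794, minus strand), an inhibitor of cathepsin G and other serine proteases, was at 28.6 and 27.7 TPM in control and 36.9 and 31.0 TPM in Qk_KO. Both Qk_KO values were higher, by a log2 difference of 0.26 (SE 0.13). Its near copies on the same chromosome were low, with Serpinb6b between 0.04 and 0.60 TPM and Serpinb6c, Serpinb6d and Serpinb6e at most 0.06 TPM. Reads shared by such copies could be divided among them in the authors' estimates, so values of single copies are uncertain. Serpinb9 (chromosome 13, 33003250 to 33017957, plus strand), the inhibitor of granzyme B, was at 0.24 and 0.48 TPM in control and 0.09 and 0.71 TPM in Qk_KO. At this level the Qk_KO libraries lay on either side of the controls, and it was the single member below the mean of 1 TPM needed for a test. Gzmb, its target, was listed at 0 in all 4 libraries, as was Ctsg, the gene of cathepsin G.

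Serping1 (chromosome 2, 84765387 to 84775444, minus strand) encodes C1 inhibitor, which blocks the complement proteases C1r and C1s and the contact-pathway enzymes. It was at 0.39 and 0.67 TPM in control and at 2.47 and 1.54 TPM in Qk_KO, so both Qk_KO values were above both controls at a very low level. The ratio of means was 3.78, and the log2 difference was 0.96 (SE 0.27) with a pseudocount of 1 and 1.74 with 0.1. Serping1 passed the filter on low values only through its Qk_KO libraries, so the filter itself favoured a difference. Its target genes were low as well: C1ra was between 0.12 and 0.43 TPM, C1s1 between 0 and 0.18 TPM, C1s2 between 0.43 and 0.75 TPM, and C1rb was listed at 0 throughout. Of the 15 microglial markers 12 lay lower in both Qk_KO libraries and 3 overlapped, where 27.5% of all genes tested lay lower. The list summed to 97.9 and 84.4 TPM in control and to 49.7 and 35.7 TPM in Qk_KO.

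In all, 4 of the 9 members had both Qk_KO values above both controls (Serpinf1, Serpinh1, Serpinb6a and Serping1), 1 had both below (Plau) and 4 overlapped. Of all genes tested, 33.6% lay apart in the higher direction and 27.5% in the lower, so groups that do not overlap are common in these libraries. The median log2 difference of the 8 members tested was 0.25, beside 0.04 for all genes tested. This describes the chosen genes and carries no test.

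Most of the remaining serpin family was close to silent in these cells. Each library lists 64 serpin symbols. Of the 57 outside the members 38 were at 0 in every library and only 3 reached a mean of 1 TPM. In limma 0 of the 3 were called, where 3.24% of all genes tested were, and 1 was at an unadjusted p under 0.05. Serpina3n, an acute-phase serpin of reactive astrocytes, was at 3.47 and 2.11 TPM in control and 0.80 and 1.45 TPM in Qk_KO and was not called (limma adjusted p = 0.139). Serpinb8 was between 0.98 and 2.01 TPM.

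The substrate and docking sites of the activators were examined with a list of plasminogen system partners. Of its 32 genes 20 were tested, 1 was called higher, 2 lower and 17 were not called, with a median log2 difference of -0.09. Over all genes tested 1.83% were called higher and 1.42% lower. In both Qk_KO libraries 5 of the 20 lay higher and 9 lower, and 6 overlapped, where 33.6% of all genes tested lay higher and 27.5% lower. At an unadjusted p under 0.05 in limma were 13 of the 20, where 28.4% of all genes tested were. Plg, the gene of plasminogen, was between 0.05 and 0.18 TPM in every library, and Vtn, the matrix protein vitronectin, between 0.30 and 0.91 TPM. Plat and Serpine2 transcripts were therefore abundant in cells that listed almost no transcript of plasminogen or of prothrombin (F2, at 0 in all 4 libraries).

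The genes called lower encode receptors cut by proteases. Their list was chosen with earlier results of these data known, so the calls and adjusted p-values are not independent evidence. F2r, the thrombin receptor PAR1, fell from 209 and 220 TPM to 140 and 113 TPM (log2 fold change -0.77, SE 0.13, limma adjusted p = 0.0470). F2rl1, the trypsin-type receptor PAR2, fell from 30.6 and 29.5 TPM to 11.5 and 11.8 TPM (-1.29, SE 0.11, limma adjusted p = 0.0220). Both genes were lower in 2 of 2 Qk_KO libraries, and they lie near each other on chromosome 13, F2rl1 at 95511732 to 95525227 and F2r at 95601803 to 95618487. Sorl1, the sorting receptor SorLA, which also binds plasminogen activators, rose from 51.0 and 50.3 TPM to 103 and 83.7 TPM (0.86, SE 0.13, limma adjusted p = 0.0426). Over the alternatives the adjusted p ran from 0.0323 to 0.320 for F2r, from 0.0158 to 0.261 for F2rl1 and from 0.0254 to 0.295 for Sorl1. These 3 calls were lost without each of the 4 libraries in turn and with no filter on low values.

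Other receptors that hold or clear the activators, Plaur and Lrp1 among them, were not called. Plaur, the urokinase receptor, was at 8.45 and 9.34 TPM in control and 5.87 and 6.03 TPM in Qk_KO, lower in both Qk_KO libraries (limma adjusted p = 0.102). Lrp1, the endocytic receptor that takes up serpin complexes, overlapped, at 70.1 and 59.2 TPM in control and 60.5 and 75.6 TPM in Qk_KO. The annexin pair that docks tPA and plasminogen on cells, named here after its values were seen, was lower without a call. Anxa2 was at 426 and 493 TPM in control and 324 and 258 TPM in Qk_KO, and S100a10 at 473 and 749.96 TPM in control and 341 and 248 TPM in Qk_KO (limma adjusted p of 0.0629 and 0.0760). A2m, the broad protease trap alpha2-macroglobulin, had the largest positive log2 difference of the list, also seen afterwards, at 27.1 and 18.3 TPM in control and 120 and 46.2 TPM in Qk_KO. Its Qk_KO replicates differed from each other by more than the nearer of them differed from the controls, and it was not called.

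**Figure D4:**
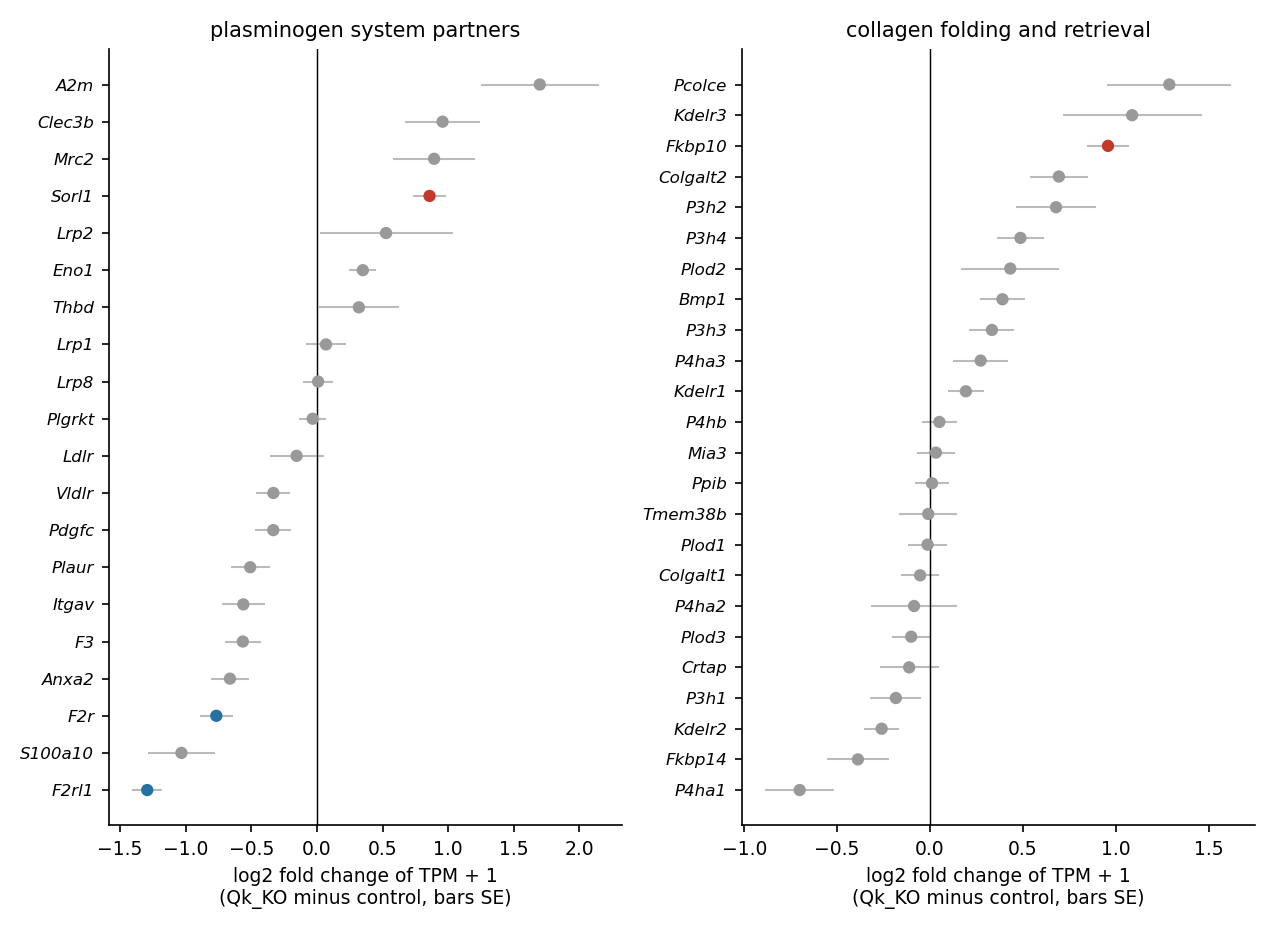
Log2 fold change of TPM + 1 (Qk_KO minus control, x axis, bars SE) for the tested genes of the plasminogen system partners (left, 20 genes) and of the collagen folding and retrieval list (right, 24 genes). Red points were called higher, blue points lower and grey points were not called. F2rl1 (-1.29), F2r (-0.77), Sorl1 (0.86) and Fkbp10 (0.96) are the genes called.

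Of the proteases that serpins inhibit, 3 of 16 genes were tested. In limma 0 were called, where 3.24% of all genes tested were, and 0 were at an unadjusted p under 0.05. With 3 genes nothing is read from the lack of calls. Masp1, a complement protease, was at 36.0 and 34.9 TPM in control and 25.1 and 39.0 TPM in Qk_KO. Prss12 and St14, the others tested, were between 1.13 and 2.43 TPM. Over the companion lists together, each gene counted once, 54 of 130 genes were tested and 2 were called higher and 2 lower. Over all genes tested 1.83% were called higher and 1.42% lower. At an unadjusted p under 0.05 in limma were 24 (44.4%), where 28.4% of all genes tested were. Nothing is read from that share, since the lists were chosen with earlier results of these data known. Among the 4 companions called, the Quaking letters occurred once each in the 3′ untranslated regions of F2r, F2rl1 and Sorl1, where 45.1%, 35.6% and 66.9% of genes of like length held a match, and not in Fkbp10.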

How the data were processed

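The authors deposited TPM per gene, 1 table per library with Entrez number and symbol. STAR 2.4.1d and RSEM 1.3.0 with mouse builds mm10 and GRCm38.p4 are named in the submitters' processing notes. Annotation, strand setting and depth: not given in the sources used here. Genes averaging 1 TPM or more over the libraries (13260) were fitted as log2(TPM + 1) with limma 3.58.1 in R 4.3.3 (lmFit, eBayes with trend), all 4 libraries in 1 fit, two-sided, Benjamini-Hochberg adjusted over all genes tested at 0.05. The fit was also run on simulated data with independent noise of the size it had estimated. Such data cannot show how the fit behaves where libraries are not independent. An exact test of 2 against 2 libraries cannot pass 0.05.

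The members and the companion and marker lists were chosen with earlier results of these data known. Named companions are the called genes of each list and Plg, Plaur, Lrp1, Vtn, Pnpla2, Kdelr2, P4hb, C1ra and C1s1; others were named after their values were seen, and 1 gene is not reported here. Positions and 3′ untranslated regions (principal protein-coding transcript) come from GENCODE M21, GRCm38. Endothelial markers (12 genes) summed to 6.54 to 8.78 TPM, and oligodendrocyte lineage markers (12) to between 1025 and 1363 TPM, mostly Olig1 and Olig2. Astrocyte markers (12) summed to 912 and 996 TPM in control and 820 and 728 TPM in Qk_KO. Without Slc1a3, the most abundant of them, the sums were 574 and 561 TPM in control and 703 and 578 TPM in Qk_KO. Slc1a3 was called lower and Aqp4 higher. Neural stem cell markers (10) summed to between 5838 and 6476 TPM. Plots used matplotlib 3.10.9 (Python 3.11.15). Alternatives tried: quantile normalization, median-ratio scaling, limma without trend, limma with robust settings, a 5 TPM filter or none, and pseudocounts of 0.5 and 0.1. The replicate block and leaving out each library were tried too.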

Additional observations from a re-analysis of the deposited data

How the results depend on the processing

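The number of genes called was 430 and moved by over 1.5 times with no filter on low values (0 called by limma, 4327 at an unadjusted p under 0.05), with a filter of 5 TPM (649) and with the trend of limma left out (41), and it ran from 1 to 92 when a library was left out. The 4 companion calls became 0 with no filter (24 at an unadjusted p under 0.05) and 1, F2rl1, without limma's trend. They became 0 without any of the 4 libraries (11 to 26 at an unadjusted p under 0.05). With the replicate number as a block, 1278 genes and 6 companions were called. The labels do not say that the numbers pair libraries, and deviations of same-numbered libraries correlated at 0.11. Of the members' log2 differences, Serping1's moved beyond the replicate spread with pseudocounts of 0.1 (1.74) and 0.5 (1.27). All others under the pseudocounts, median-ratio scaling and quantile normalization stayed within it. Leaving out a library cannot move a difference beyond that spread by this rule. The filters, the limma options and the block leave the difference itself unchanged. Those settings therefore say nothing on the stability of its size. Signs changed for Serpine2 without Qk_KO replicate 1, for Plat without control replicate 1, and for Serpinb9 in 4 settings. With 1 library left in a group, limma assumes that it varies like the other group.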
